A study of Rattus norvegicus with 22 samples.

Results

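Cartilage matrix genes outside the collagens were followed in engineered rat cardiac tissue under cyclic stretch, under the inhibitor BIRB796, and under both. The set comprised 9 genes of 26456 on the array: Acan, Hapln1, Comp, Matn1, Matn3, Matn4, Chad, Sox9 and Runx2. They were picked by gene symbol with no cutoff on any value, and they held 12 of 30367 gene probes. The set was drawn up with results of these arrays already known, and which values were consulted is not recorded. The tests below therefore describe the size of each difference and are not independent evidence for the choice of genes.

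The tissue was made from embryonic ventricle cells (Sprague Dawley rats, gestational day 14.5), cast in matrix between anchors and cultured for 7 days. Of 22 arrays, 7 came from control tissue without stretch or drug, 7 from tissue stretched at 0.5 Hz and 5% elongation for 48 h, 4 from tissue with 10 µM BIRB796 for 48 h, and 4 from tissue with both treatments. Treatment began on culture day 5, and the treatment protocol describes BIRB796 as an inhibitor of p38 MAPK, whereas the series title speaks of a tyrosine kinase. The series calls the samples biological replicates; how many embryos or cell preparations they came from is not given in the sources used here. Each array reports bulk RNA from a whole construct, so fewer cells of a type and less RNA per cell cannot be told apart.

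Cartilage matrix is built from collagen fibrils that hold very large aggregates of aggrecan. Aggrecan, the product of Acan, is a proteoglycan loaded with chondroitin sulfate that binds the polysaccharide hyaluronan, and the link protein Hapln1 locks that bond. COMP, the matrilins Matn1, Matn3 and Matn4, and chondroadherin (Chad) bridge collagen fibrils, proteoglycans and cells. The transcription factor Sox9 switches on many of these genes, and Runx2 drives chondrocyte hypertrophy and bone formation. In the heart, several of them are known from developing valves and outflow tract, where Sox9-positive mesenchyme lays down an aggrecan-rich matrix.

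The probes are 60 bases long. For 5 genes the sequence is printed here from the scanner files, because results below turn on what these probes measured. It runs 5′ to 3′ along the transcript, and the only capitals mark the start codon at the 5′ end of the Sox9 probe. Positions are those the scanner files give for the rat build rn4. The Acan probe lies at chr1:134846027-134846595 on the plus strand and covers 569 genomic bases, more than its own length, so it crosses an intron. The Sox9 probe is at chr10:102393822-102393881 (plus strand) and the Matn4 probe at chr3:155414183-155414242 (minus strand). The Hapln1 probe shown, at chr2:19629918-19629977 (plus strand), starts at base 484 of the transcript. The Runx2 probe shown, at chr9:11945923-11945982 (plus strand), starts at base 1642. Both genes also have probes further downstream, at base 1972 for Hapln1 and at bases 2393 and 6229 for Runx2. The probes at base 1972 and base 6229, whose sequences are not printed, stood for these genes in the tests. The printed probes of both genes serve below as a comparison.
Acan: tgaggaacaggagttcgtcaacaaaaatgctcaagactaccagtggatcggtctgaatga
Sox9: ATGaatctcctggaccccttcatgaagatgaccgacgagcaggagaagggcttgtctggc
Matn4: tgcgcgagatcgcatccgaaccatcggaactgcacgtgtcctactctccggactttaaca
Hapln1: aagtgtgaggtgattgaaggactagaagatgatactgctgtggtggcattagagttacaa
Runx2: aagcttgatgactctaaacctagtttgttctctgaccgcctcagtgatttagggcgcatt

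The arrays were scanned in 3 sessions, and this sets what can be compared. In session 1, control and stretch replicates 1 to 3 were scanned, with a pair of equal number on every slide. Session 2 held stretch replicates 4 to 7 alone. Session 3 held control replicates 4 to 7 and all BIRB796 and stretch with BIRB796 arrays. Its groups were spread unevenly over slides. BIRB796 replicates 2 to 4 were on slide 9, which held no control, and control replicates 5 and 6 were alone on slide 7. Only slide 6 held both a control and a BIRB796 array, and slides 6 and 8 held controls beside arrays with both treatments. Drug and slide can therefore be told apart only in part within session 3. On session 1 arrays, 82.6% to 91.3% of probes were well above background. That share was 65.5% to 73.1% in session 2, and session 3 arrays reached 71.4% to 79.9%, with stretch replicate 7 the dimmest array. Stretch replicates 4 and 5 differed by less than the noise between repeated spots and were counted as 1 sample, which left 21 samples. All 8 cardiomyocyte markers were well above background on every array.

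A level below is the log2 signal of a probe relative to the 75th percentile of its array, so that 0 is a probe at that percentile and -1 is a signal 2 times lower. A gene was called at an adjusted p under 0.05 in limma over the 23479 genes tested. Levels of different genes come from different probes and are not set against each other. All 9 genes passed the filter of at least 4 arrays well above background.

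In the fit of all 21 samples with equal weight, none of the 9 genes was called in any comparison within a scan session; the fit of session 3 alone called Acan and Hapln1, as given below. For stretch against control in session 1 that was 0 of 9 beside 0% of all genes, with 1 of the 9 at an unadjusted p under 0.05 (3.2% of all genes). For BIRB796 against control in session 3 it was 0 of 9 beside 0% of all genes, with 2 at an unadjusted p under 0.05 (6.57% of all genes). For stretch with BIRB796 against control in session 3 it was 0 of 9 beside 0.098% of all genes, with 2 at an unadjusted p under 0.05 (9.6%). For stretch with BIRB796 against BIRB796 alone it was 0 of 9 beside 0%, with 0 at an unadjusted p under 0.05 (1.81%). The change under stretch with the drug was also set against the change without it, and there too 0 of 9 genes were called beside 0% of all genes (0 at an unadjusted p under 0.05, 1.29% of all genes). When arrays were weighted by their scatter, more genes were called over the whole array as well: 1 of 9 beside 0.63% of all genes for stretch in session 1 (Runx2), 3 of 9 beside 23.7% for BIRB796 (Acan, Matn3 and Hapln1), and 4 of 9 beside 32.8% for both treatments (Acan, Hapln1, Sox9 and Runx2).

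The middle of the set lay slightly above that of all genes in each comparison with control. The median log2 difference of the 9 genes was 0.21 under stretch in session 1, where the median over all genes was 0.08, and 8 of 9 were positive (62.7% of all genes). It was 0.29 against 0.01 for BIRB796, again with 8 of 9 positive (52.2% of all genes), and 0.37 against 0.04 for both treatments, with 8 of 9 positive (56.2%). The negative gene was Matn1 under stretch and Hapln1 in both drug comparisons. The 2 drug comparisons share their 4 control samples, so their values stand side by side and are not separate evidence.

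**Figure D1:**
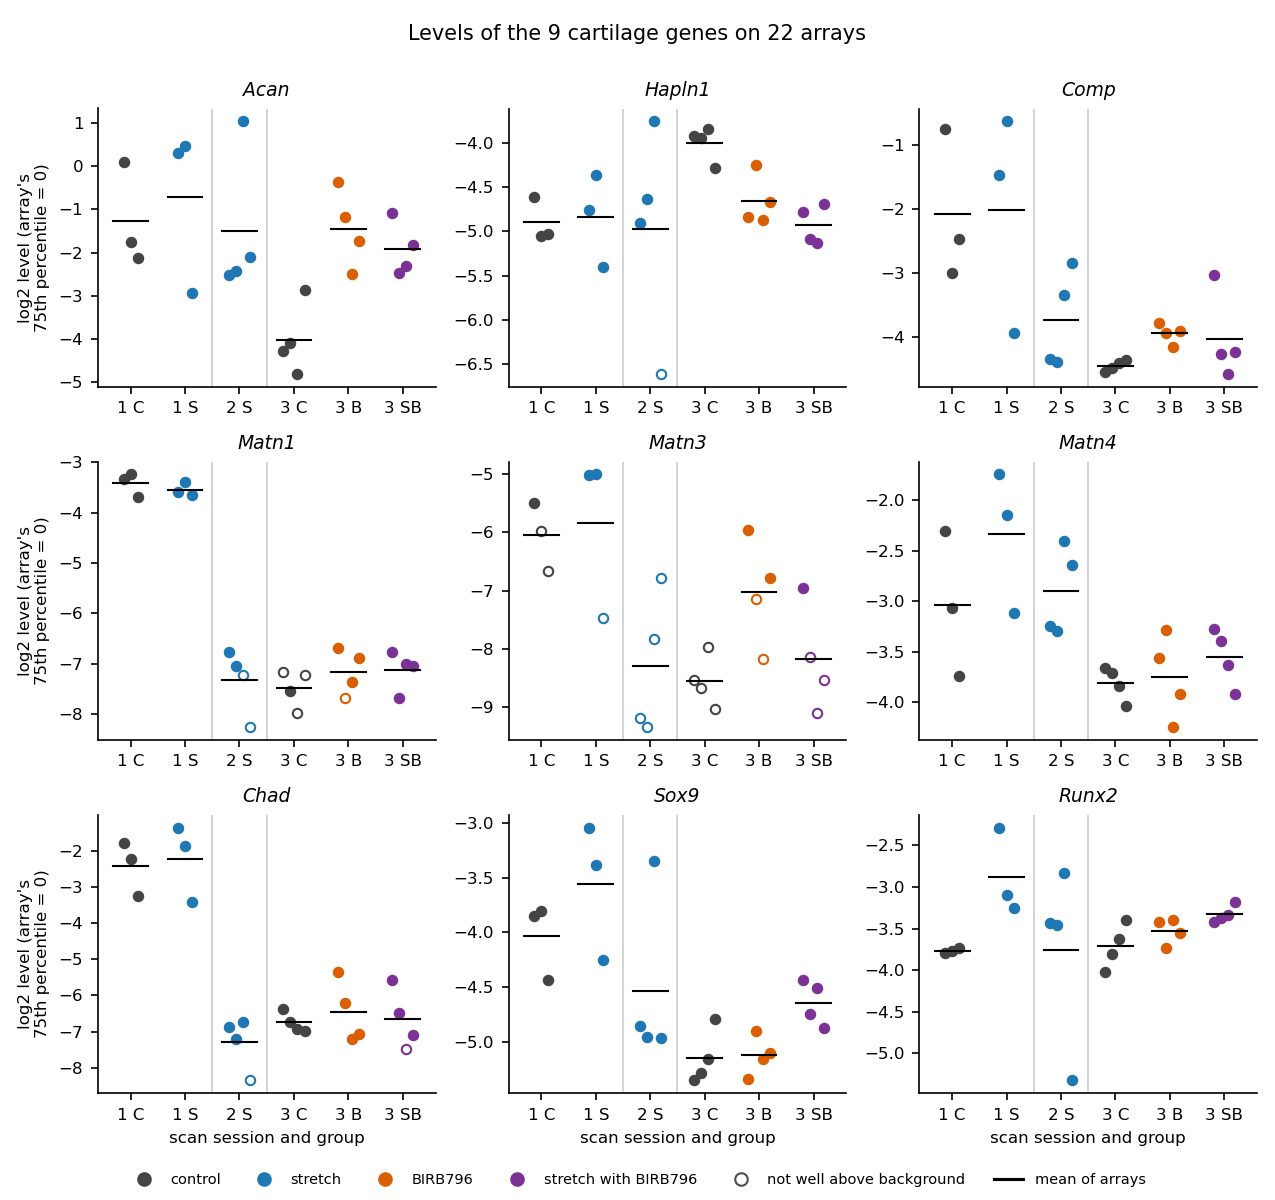
Log2 level of each of the 9 genes on every array, relative to the array's 75th percentile. Columns give the scan session (1, 2 or 3) and the group (C control, S stretch, B BIRB796, SB stretch with BIRB796); open circles mark arrays where the probe was not well above background, and bars are means of arrays. Acan in session 3 shows control between -4.80 and -2.86 and all drug-treated arrays at or above -2.49, while Matn1 and Chad lie several log2 units lower in sessions 2 and 3 than in session 1.

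Of the 9 genes, Acan differed most between drug-treated tissue and control. In session 3 its level in the control samples was -4.28, -4.09, -4.80 and -2.86 for replicates 4 to 7. With BIRB796 it was -0.37, -1.19, -2.49 and -1.73, and with stretch and BIRB796 it was -1.08, -2.46, -2.31 and -1.82. All 8 drug-treated samples lay above all 4 controls, with control replicate 7 closest to them.

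On average Acan was higher by 2.56 ± 0.82 (SE, 4 against 4 samples; 95% interval 0.85 to 4.28) with BIRB796, which is 5.91-fold, and higher in 4 of 4 samples than any control. In limma its adjusted p was 0.42. Of all genes, 6.56% likewise had every BIRB796 sample above every control. With both treatments Acan was higher by 2.09 ± 0.82 (SE, 4 against 4; interval 0.37 to 3.81), or 4.25-fold, with an adjusted p of 0.39 in limma, and all 4 samples were again above all controls, as for 8.6% of all genes. Stretch added no detectable step on top of the drug: the difference between both treatments and BIRB796 alone was -0.47 ± 0.82 (SE, 4 against 4; interval -2.19 to 1.24).

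Whether Acan is called depends on where the spread is taken from. The values above use the spread of all 21 samples; session 1 and session 2 samples were far more scattered for this gene, with SDs of 1.19 to 1.92 against 0.62 to 0.89 in session 3. Fitted on the 12 session 3 samples alone, the same differences had an SE of 0.51 and adjusted p-values of 0.0385 for BIRB796 (1.96% of all genes called) and 0.0371 for both treatments (7.57% of all genes called) in limma. With array weights over all samples, the adjusted p-values in limma were 7.33e-05 and 0.000475. With the slide as a block in the fit of session 3 alone, the BIRB796 difference was 2.51 ± 0.78 (SE) with an adjusted p of 0.32 (0.00852% of all genes called), and that for both treatments was 1.85 ± 0.64 with an adjusted p of 0.195 (0.0894% of all genes called). On slide 6, which held 1 control array, 1 with BIRB796 and 1 with both treatments, BIRB796 replicate 1 was 3.91 above the control and stretch with BIRB796 replicate 1 was 3.20 above it. On slide 8, both stretch with BIRB796 samples were only 0.39 and 0.54 above their control, replicate 7.

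Under stretch without the drug, Acan in session 1 was 0.09, -1.75 and -2.14 in control replicates 1 to 3 and 0.30, 0.46 and -2.92 in stretch replicates 1 to 3. Stretched tissue was higher on slides 1 and 2, by 0.21 and 2.20, and lower on slide 3, with a difference of -0.79. The mean difference of 0.54 ± 0.94 (SE, 3 against 3; interval -1.44 to 2.53) was smaller than the spread between replicates. In session 2, stretch replicate 6 had the highest Acan level of all arrays, at 1.04, while replicates 4, 5 and 7 were at -2.52, -2.42 and -2.09.

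**Figure D2:**
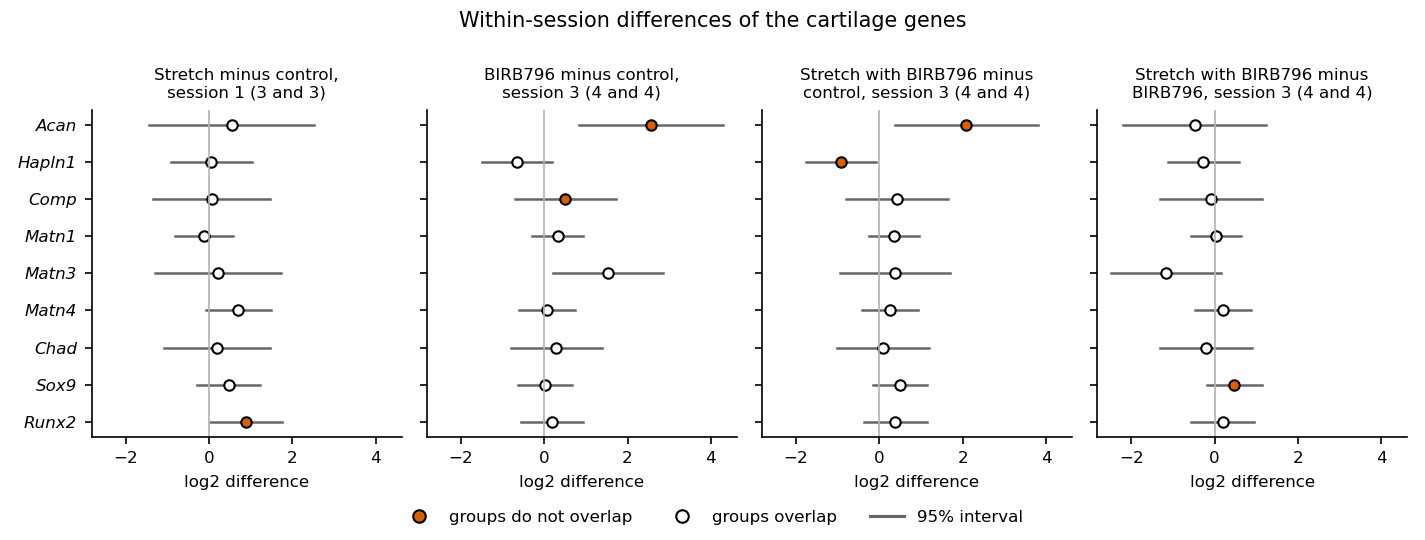
Log2 difference of each gene in the 4 comparisons that lie within a scan session, with its 95% interval from limma; filled points mark genes whose groups did not overlap. Acan is farthest from 0 in both comparisons of drug-treated tissue with control (2.56 and 2.09), Hapln1 lies below 0 there, and most other intervals include 0.

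Hapln1, whose protein locks aggrecan to hyaluronan, went the other way in session 3. Its downstream probe read -3.92, -3.95, -3.85 and -4.29 in the controls, -4.84, -4.25, -4.87 and -4.67 with BIRB796, and -4.78, -5.09, -5.14 and -4.69 with both treatments. Every sample with both treatments was below every control, which 8.34% of all genes also showed, while 1 BIRB796 sample, replicate 2, lay within the control range.

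The difference from control was -0.92 ± 0.40 (SE, 4 against 4; interval -1.76 to -0.08) with both treatments, or 0.528 times the control level, with an adjusted p of 0.46 in limma and 4 of 4 samples lower. With BIRB796 alone it was -0.66 ± 0.40 (SE, interval -1.50 to 0.19). The upstream probe, whose sequence is given above, showed like differences of -0.93 ± 0.37 and -0.59 ± 0.37. Within slides the downstream probe was lower than the control by similar amounts, with differences of -0.91 and -0.86 on slide 6 and -0.80 and -0.85 on slide 8. In the fit of session 3 alone the gene passed for both treatments, with the same difference, an SE of 0.16 and an adjusted p of 0.0147 in limma; with the slide as a block the difference was -0.86 ± 0.16 and the adjusted p 0.0826.

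**Figure D3:**
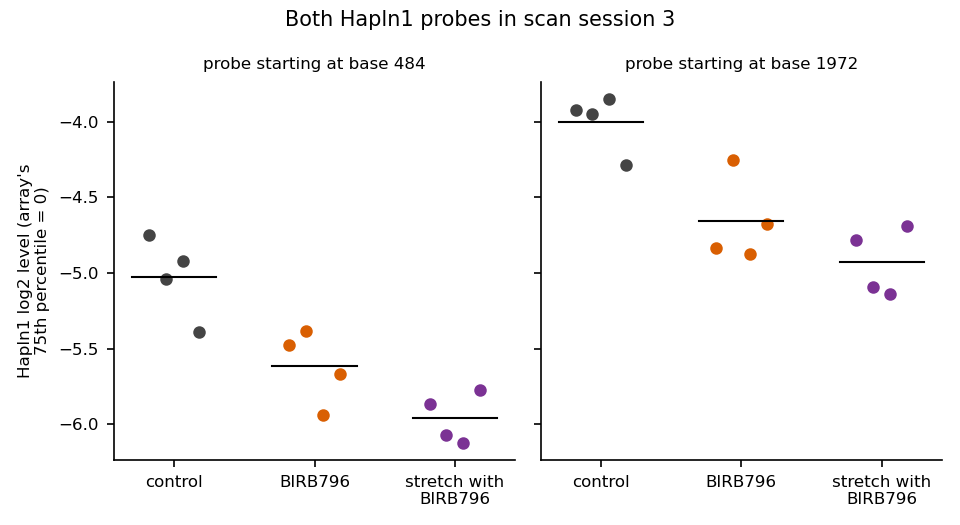
Log2 level of Hapln1 in the 12 samples of scan session 3, by its probe at base 484 and its probe at base 1972 of the transcript; points are samples and bars are means. On both probes the 4 samples with stretch and BIRB796 lie below the 4 controls, with mean differences of -0.93 and -0.92.

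Stretch without the drug left Hapln1 within the spread between replicates. In session 1 control tissue read -4.62, -5.05 and -5.03 and stretched tissue -4.76, -4.37 and -5.41 on the downstream probe, a difference of 0.05 ± 0.46 (SE, 3 against 3; interval -0.92 to 1.03). The groups overlapped on both probes.

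Comp encodes cartilage oligomeric matrix protein, a thrombospondin family member that binds collagen. In session 3 the controls were tightly grouped at -4.55, -4.48, -4.41 and -4.36. BIRB796 samples read -3.78, -3.94, -4.15 and -3.90, all above the controls, as for 6.56% of all genes. Samples with both treatments read -3.02, -4.27, -4.58 and -4.24. The difference for BIRB796 was 0.51 ± 0.58 (SE, 4 against 4; interval -0.70 to 1.73) with an adjusted p of 1 in limma and 4 of 4 samples higher. The SE of that BIRB796 difference uses the spread of all 21 samples. The SD of Comp was 0.08 in session 3 controls and 0.16 with BIRB796, against 1.17 and 1.73 in session 1 control and stretched tissue. The fit of session 3 alone did not call Comp. In session 1 Comp spanned -2.99 to -0.75 in control tissue and -3.94 to -0.62 in stretched tissue, and the pairs on slides 1 to 3 differed by -0.71, 2.37 and -1.48. The mean stretch difference was 0.06 ± 0.67 (SE, 3 against 3), and the pairs went in opposite directions.

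The matrilins are adaptor proteins of the cartilage network. Matn4 is found in many tissues besides cartilage. In session 1 its level in control tissue was -2.30, -3.07 and -3.75, and in stretched tissue -1.74, -2.14 and -3.12. Stretched tissue was higher on all 3 slides, by 0.56, 0.93 and 0.63. The groups still overlapped, because slide 3 was low for both, and the difference was 0.70 ± 0.37 (SE, 3 against 3; interval -0.07 to 1.48; adjusted p 1 in limma). With the slide, which here equals the replicate number, as a block, the difference was 0.70 ± 0.19 and the adjusted p 0.903. In session 3 Matn4 read -3.66, -3.72, -3.84 and -4.04 in controls, -3.56, -3.29, -4.25 and -3.92 with BIRB796 and -3.28, -3.39, -3.63 and -3.92 with both, and the groups overlapped.

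Matn1, the classical cartilage matrilin, was well above background in session 1 and near the detection limit elsewhere. It read -3.34, -3.24 and -3.69 in control and -3.60, -3.39 and -3.64 in stretched tissue of session 1, a difference of -0.12 ± 0.33 (SE, 3 against 3). In session 3 it was at -7.97 to -7.16 in controls, where 1 of 4 arrays was well above background. BIRB796 samples ranged from -7.69 to -6.69 (3 of 4 above background) and samples with both treatments from -7.68 to -6.76 (4 of 4), and the groups overlapped.

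Matn3, a matrilin of growth plate cartilage, was well above background on only 6 of 22 arrays. Those were control replicate 1, stretch replicates 1 and 2, BIRB796 replicates 1 and 4, and stretch with BIRB796 replicate 1. In session 3 no control array had the probe well above background (measured -9.04 to -7.96), and BIRB796 samples measured -5.96, -7.14, -8.18 and -6.78. The measured difference was 1.54 ± 0.62 (SE, 4 against 4; interval 0.22 to 2.85), with an adjusted p of 0.642 in limma. In this comparison 3 of 4 BIRB796 samples were above all controls. With the control values raised to the detection limit of their arrays, the BIRB796 mean was 1.46-fold higher. Only 2 of the 4 BIRB796 arrays were themselves well above background, so this value is not a lower bound. For both treatments the measured difference was 0.37 ± 0.62 (SE, 4 against 4), with 1 of 4 arrays well above background. The same calculation gave 0.653 times the control level there, because it raised the control values only. With the values of both groups raised to the detection limit, the means were -7.42 with both treatments and -7.57 in control. In session 1 the difference under stretch was 0.21 ± 0.72 (SE, 3 against 3).

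Chad encodes chondroadherin, a leucine-rich repeat protein that cells bind through integrins. In session 1 it read -1.80, -2.22 and -3.24 in control tissue and -1.36, -1.88 and -3.41 in stretched tissue, a difference of 0.20 ± 0.60 (SE, 3 against 3; interval -1.07 to 1.47). In session 3 control values lay between -6.98 and -6.37, BIRB796 values between -7.19 and -5.34 and values with both treatments between -7.48 and -5.57. Replicate 1 was the highest of both treated groups, and the groups overlapped.

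Sox9 is the master regulator of the chondrocyte lineage. Its control level in session 3 was -5.35, -5.28, -5.15 and -4.79. BIRB796 samples read -5.33, -4.90, -5.16 and -5.10, a difference of 0.02 ± 0.31 (SE, 4 against 4; interval -0.63 to 0.67). Samples with stretch and BIRB796 read -4.44, -4.74, -4.51 and -4.88, all above those with BIRB796 alone, as for 2.85% of all genes. That difference was 0.48 ± 0.31 (SE, 4 against 4; interval -0.17 to 1.13), or 1.39-fold, with an adjusted p of 1 in limma. Without the drug, Sox9 in session 1 was -3.85, -3.80 and -4.43 in control and -3.05, -3.39 and -4.25 in stretched tissue, higher on each slide, by 0.80, 0.42 and 0.18. The mean stretch difference was 0.47 ± 0.36 (SE, 3 against 3; interval -0.28 to 1.22), so the changes with and without the drug differed by 0.01 ± 0.47 (interval -0.98 to 1.00).

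Runx2, the driver of hypertrophy and of osteoblasts, gave an answer that depended on the probe. On the probe at base 6229, control tissue of session 1 read -3.79, -3.78 and -3.73 and stretched tissue -2.29, -3.10 and -3.25, so all 3 stretched samples were above all controls, as for 5.79% of all genes. The difference was 0.89 ± 0.41 (SE, 3 against 3; interval 0.02 to 1.76), with an adjusted p of 1 in limma and 3 of 3 pairs higher. The probes at bases 1642 and 2393 gave 0.18 ± 0.32 and -0.07 ± 0.61 for the same samples. In session 3 the probe at base 6229 read -4.02 to -3.40 in control, -3.73 to -3.40 with BIRB796 and -3.42 to -3.18 with both treatments, and the groups overlapped.

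With all sessions pooled and a term for the array set, 1 of the 9 genes was called for stretch against control, beside 8.7% of all genes. It was Matn4: its level was -4.04, -3.72 and -2.30 (lowest, median and highest of 7) in control and -3.27, -2.52 and -1.74 (of 6) in stretched tissue. The groups overlapped. Matn4 was higher by 0.89 ± 0.25 (SE; interval 0.37 to 1.41), or 1.85-fold, with an adjusted p of 0.0368 in limma, and 6 of 6 stretched samples were above the control mean of -3.48. With the replicate number as a block, the difference was 0.89 ± 0.20 and the adjusted p 0.317. Stretch in session 2 has no partner group there, so stretch and session cannot be told apart in this pooled value.

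The other 8 genes were not called over all sessions. Acan differed by 1.76 ± 0.68 (SE, 6 against 7; adjusted p 0.095 in limma) and was -4.80, -2.86 and 0.09 (lowest, median and highest) in control and -2.92, -0.90 and 1.04 in stretched tissue. Sox9 differed by 0.61 ± 0.24 (adjusted p 0.1 in limma), with control from -5.35 to -3.80 and stretched tissue from -4.96 to -3.05. Single samples decided some calls. With control replicate 1 left out, Acan passed (2.17, adjusted p 0.0474 in limma), where 2224 of 23479 genes were called. Dropping stretch replicate 3 let Acan (2.34, adjusted p 0.0128) and Sox9 (0.77, adjusted p 0.027) pass in limma. That omission called 4694 genes over the whole array, against 2042 with all samples. Runx2 passed once stretch replicate 7 was dropped (0.74, adjusted p 0.0161 in limma), where 1537 genes were called. The call of Matn4 was lost without any 1 of control replicates 3 to 7 or stretch replicates 1, 6 and 7, with adjusted p-values of 0.0644 to 0.0781. Each of the omissions that lost Matn4 also lowered the count over the whole array, to between 289 and 1809 genes.

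Stretch with BIRB796 was also set against stretch over all sessions, where 0 of 9 genes were called beside 1.25% of all genes and 1 had an unadjusted p under 0.05 (22% of all genes). That gene was Matn4, at -3.92, -3.63, -3.39 and -3.28 with both treatments against -3.27 to -1.74 with stretch alone. All samples with both treatments were below all stretched samples, as for 7.12% of all genes. The difference was -0.69 ± 0.31 (SE, 4 against 6; interval -1.35 to -0.04; adjusted p 0.203 in limma). Here too the groups were scanned in different sessions.

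Levels also differed by scan session. Between the controls of session 3 and session 1, the level differed by -4.33 for Chad, -4.05 for Matn1, -2.74 for Acan, -2.51 for Matn3, -2.38 for Comp, -1.11 for Sox9, -0.78 for Matn4, 0.05 for Runx2 and 0.90 for Hapln1. The median over all genes was -0.34, with 5% of genes below -4.19. Stretched tissue of session 2 was likewise far below that of session 1 for Chad (mean -7.37 against -2.22) and Matn1 (-7.46 against -3.54). Group labels were the same on both sides of each of these differences.

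The position of the probe moved with this session difference. For Runx2 the control difference was -2.80 on the probe at base 1642, -1.92 at base 2393 and 0.05 at base 6229, all on the same samples. For Hapln1 it was -1.34 at base 484 and 0.90 at base 1972. Over the 1705 transcripts with a pair of probes at least 500 bases apart, the upstream probe was lower in session 3 relative to session 1 than the downstream probe in 1209, or 70.9%, with a median gap of -0.36. What part probe position has in the session difference of the other genes was not tested. Within a session both Hapln1 probes gave like differences between groups, so the values within session 3 do not rest on 1 probe position for that gene.

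**Figure D4:**
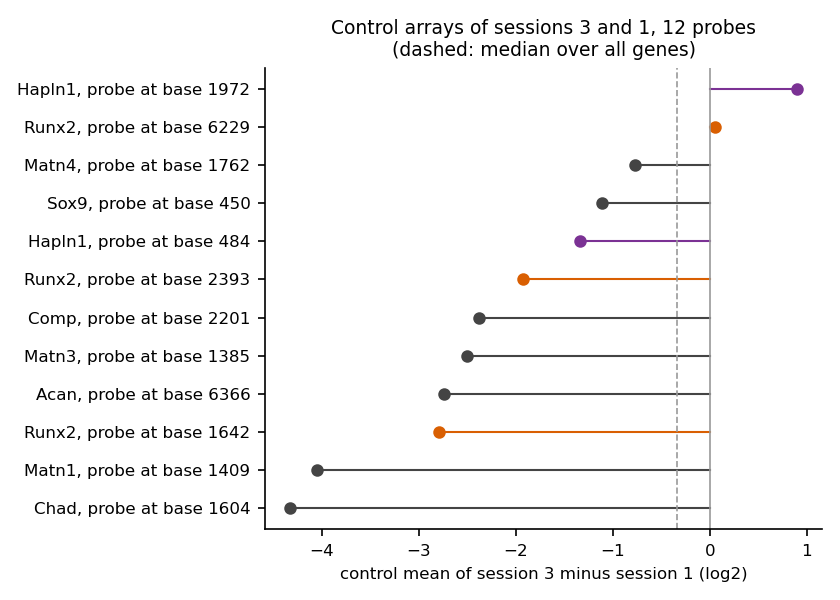
Mean log2 level of the session 3 controls (4 arrays) minus the session 1 controls (3 arrays) for each of the 12 probes, ordered by size and labelled with the base of the transcript at which the probe starts; the dashed line is the median over all genes, -0.34. Chad (-4.33) and Matn1 (-4.05) are lowest, and the 3 Runx2 probes (orange) spread from -2.80 to 0.05 while the Hapln1 probes (purple) lie at -1.34 and 0.90.

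Acan levels moved with a summed level of smooth muscle and pericyte markers. The sum is taken over unlogged signals, so bright markers weigh most. In session 1 controls, for example, the mean was 2.28 for Acta2 and -2.80 for Myh11. Acta2 reached at most 2.74 there while the sum was 4.61 to 5.69, so other markers made up most of it. Which marker carried the correlation given below was not tested. The summed level of 6 smooth muscle and pericyte markers (Acta2, Myh11, Cnn1, Tagln, Cspg4 and Rgs5, all well above background) was 4.72 to 5.40 in session 3 controls, 5.90 to 6.66 with BIRB796 and 5.83 to 6.86 with both treatments. Across the 12 session 3 samples Acan had a correlation of 0.97 with this sum, and 0.83 across the residuals of all 21 samples from their group means within a session. These samples share treatment groups, slides and depth, so the correlation is a description. Which cells made these markers, and what part smooth muscle cells or pericytes had in the Acan difference, was not tested.

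**Figure D5:**
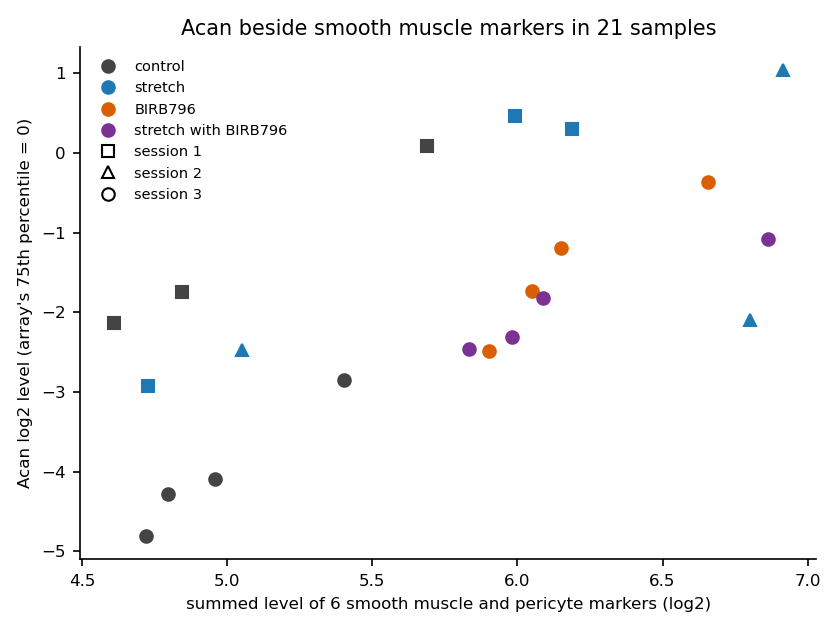
Acan log2 level against the summed level of 6 smooth muscle and pericyte markers in 21 samples; colour gives the group and shape the scan session. In session 3 the 4 controls sit at the lower left (sum 4.72 to 5.40) and the 8 drug-treated samples at the upper right (5.83 to 6.86), while at a given sum most session 1 samples lie higher in Acan.

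Markers of epicardium, cartilage and bone were read in the same way. The 7 epicardial and mesothelial markers summed to 3.40 to 4.04 in session 3 controls, 2.29 to 3.49 with BIRB796 and 2.38 to 3.25 with both treatments, and their correlation with Acan was -0.97 over the 12 samples but -0.43 over the residuals of all 21. The 9 chondrocyte markers, 2 of which are Acan and Matn1 themselves, were all tested. They summed to 0.04 to 1.00 in session 3 controls, 1.08 to 2.33 with BIRB796 and 1.66 to 2.59 with both. The brightest gene in this sum was Epyc, with session 3 means of -0.43 in control, 0.85 with BIRB796 and 1.76 with both treatments, and Snorc (-2.90, -1.67 and -1.94) and Acan were also higher in treated tissue. The defining collagen Col2a1 did not follow: its mean was -4.74 in control, -4.87 with BIRB796 and -4.94 with both treatments, and it was well above background on all of these arrays. Nor did Cnmd (-3.29, -3.11 and -4.05) or Ucma (-4.35, -4.39 and -4.69). Col11a2 (-2.89, -2.55 and -3.05) was higher with BIRB796 but not with both treatments. Its BIRB796 samples (-2.68 to -2.40) all lay above the controls (-3.04 to -2.78), as for 6.56% of all genes. Of 6 osteoblast markers only 3 passed the filter, and these summed to -2.31 to -2.08 in controls, -2.95 to -2.63 with BIRB796 and -3.38 to -2.74 with both treatments.

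Vessel lining, valve and immune cells were read too. The 6 endothelial markers summed to 1.80 to 2.33 in session 3 controls, 1.29 to 1.63 with BIRB796 and 0.73 to 1.35 with both treatments, so neither treated group overlapped the controls. The 5 valve and cushion mesenchyme markers tested, from the part of the heart where these matrix genes are best known, summed to 3.09 to 3.25 in controls, 3.14 to 3.50 with BIRB796 and 3.45 to 3.79 with both. The 5 macrophage markers tested summed to 5.01 to 5.96, 4.99 to 5.38 and 4.72 to 4.95. All markers tested in these 3 lists were well above background in session 3. With both treatments the endothelial and macrophage sums were below, and the valve sum above, all controls. Fibroblast, cardiomyocyte and neural crest sums overlapped between controls and both treated groups. The part of any of these cell types in the Acan and Hapln1 differences was not tested.

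By the likeness of their levels over the 12 session 3 samples, the genes nearest to Acan were Ehd2 (correlation 0.99), Nox4, Rgs17, Stac and Heyl (each 0.98), and their residual correlations over 21 samples were 0.88 to 0.95. Those nearest to Comp were Rcan1 (0.95), Ifna4l2, Hbegf and Mafk (each 0.94) and Ccn2 (0.93), but their residual correlations were only 0.18 to 0.66. Runx2 was nearest to Pafah1b2 (0.95), Ugp2 (0.93), Chd6, Clns1a (each 0.91) and Pbdc1 (0.90), with residual correlations from -0.39 to 0.70. Among the 9 genes themselves, residuals of Acan over all 21 samples correlated with those of Sox9 (0.79), Matn4 (0.72), Comp (0.71) and Chad (0.70), and those of Comp with Matn3 (0.79). Over the residuals of the 12 session 3 samples these correlations were 0.32, 0.34, 0.57, 0.61 and 0.76 in the same order. Residuals of Hapln1 and Runx2 correlated at 0.77 over all 21 samples and at -0.50 over the 12 of session 3. Hapln1 correlated at -0.68 with Acan over the levels of session 3 and at 0.57 over the residuals of all 21 samples, but at -0.01 over the residuals of the 12 session 3 samples.

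Other genes of the cartilage programme gave few calls. Of 18 further cartilage matrix genes tested, 0 were called within any session in the shared fit. In session 3 alone, 3 of 18 were higher with BIRB796, beside 0.997% of all genes called higher: Col10a1, the hypertrophic cartilage collagen, by 3.10 ± 0.55 (SE; adjusted p 0.0301 in limma), Cilp by 0.63 and Snorc by 1.23. With the slide as a block 0 of the 18 were called for BIRB796; Col10a1 was then at 3.19 with an adjusted p of 0.0714 in limma. With both treatments 3 of 18 were higher, beside 3.1% of all genes: Epyc, a small leucine-rich proteoglycan of growth cartilage, by 2.19 ± 0.38 (adjusted p 0.0147 in limma), Scrg1 by 0.62 and Snorc by 0.96, and with the slide as a block again 0 were called. For both treatments against BIRB796 alone, the slide block called 1 of the 18 lower, where 4 of 23479 genes were called. Across the lists described from here on, the slide block left 0 genes called for BIRB796 against control. It left 1 for both treatments against control, Gli1 (-1.07, adjusted p 0.0479 in limma). Over all sessions Cnmd, which encodes chondromodulin, was lower under stretch by a difference of -1.89 (adjusted p 0.0238 in limma), which makes 1 of 18 called beside 8.7% of all genes. For this and every list below, the calls over all sessions compare groups that lie partly in different scan sessions, and with the replicate number as a block 0 genes of any list were called (0% of all genes).

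Of the 16 chondrogenic regulators tested, none was called within a session in the shared fit. In session 3 alone 2 were lower with BIRB796 (0.963% of all genes called lower): Sox6, the partner of Sox9, with a difference of -0.88 (adjusted p 0.0274 in limma) and Bmp2, a chondrogenic growth factor, with a difference of -0.65. With both treatments 3 were lower (4.47% of all genes), namely Gli1 (-0.99, adjusted p 0.00331), Bmp2 (-0.81) and Sox6 (-0.83), and 2 were higher (3.1% of all genes), with Fgfr3, a receptor that restrains chondrocyte growth, at 0.94. Over all sessions Bmp2 and Gli1 were lower under stretch (-0.50 and -1.15) and Arid5b, a coactivator of Sox9, was higher (0.70), which makes 3 of 16 called in limma beside 8.7% of all genes.

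The enzymes that build chondroitin sulfate, the sugar chain of aggrecan, had mostly positive differences in the drug comparisons with control, which share their control samples. With BIRB796 and with both treatments 16 of 19 tested had positive differences, beside 52.2% and 56.2% of all genes. The medians were 0.30 and 0.32 beside 0.01 and 0.04 over all genes, and 0 were called in the shared fit. Under stretch in session 1, 12 of 19 were positive, beside 62.7% of all genes. For both treatments against BIRB796 10 of 19 were positive, with a median of 0.004 beside 0.01 over all genes. In session 3 alone 4 of 19 were higher with both treatments, beside 3.1% of all genes: Chpf2 by 0.40, Papss1 by 0.25, Papss2 by 0.32 and Chst7 by 0.47. Over all sessions 3 of 19 were called, all higher under stretch, beside 8.7% of all genes, namely Chpf2 (0.59 ± 0.15), Csgalnact2 (0.78 ± 0.21) and Chpf (0.62 ± 0.17), with adjusted p-values of 0.0274 to 0.0327 in limma.

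Among 11 binding partners of aggrecan and hyaluronan, Cd44, the cell surface hyaluronan receptor, was higher by 0.73 ± 0.16 (SE; adjusted p 0.0175 in limma) and Bcan, a brain relative of aggrecan, by 0.90 ± 0.24 under stretch over all sessions (2 of 11 called beside 8.7% of all genes). Within sessions 0 of 11 were called. Of the 3 thrombospondins tested, relatives of Comp, Thbs1 was higher (1.39 ± 0.42) and Thbs2 lower (-1.38) under stretch over all sessions, which makes 2 of 3 called beside 8.7% of all genes. Thbs1 was also higher with both treatments in session 3 alone (1.08, adjusted p 0.0274 in limma; 1 of 3 beside 3.1% of all genes). The list of proteases that cut aggrecan or COMP, with their inhibitor Timp3, had 8 genes tested, of which 2 were positive under stretch in session 1 and 2 with both treatments. In session 3 alone 3 of the 8 were lower with both treatments, beside 4.47% of all genes: Adamts9 (-0.38), Adamts4 (-0.63) and Adamts7 (-0.52). Over all sessions Adamts15 was lower under stretch (-1.68; 1 of 8 called beside 8.7% of all genes). Of 12 relatives and bone targets of Runx2, Runx1 was higher (0.61) and Alpl, alkaline phosphatase, lower (-1.41) with both treatments in session 3 alone (1 of 12 each, beside 3.1% and 4.47% of all genes). Alpl and Msx2 were lower under stretch over all sessions (-1.90 and -0.70; 2 of 12 called beside 8.7% of all genes).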

How the data were processed

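Each sample was a 1-colour Agilent array. Scanner files hold the deposited intensity of each spot, background-subtracted by Agilent's software per the file headers; the authors' deposited table holds log2 values that matched each array's own scanner values, with column medians from -0.11 to 0.40, and was used as an alternative. Of 30367 probes, 17998 were named by accession, 2359 by current symbol and 615 by synonym in RefSeq (GRCr8), and 9395 kept the file's name; the 9 genes matched. Spots of a probe were averaged, log2 signal minus the array's 75th percentile was taken, a probe had to be well above background on 4 or more arrays, and the probe with the highest mean stood for a gene. limma 3.58.1 (R 4.3.3) fitted 6 groups of session and treatment, or 4 groups with a term for array set over all sessions, with Benjamini-Hochberg adjustment over 23479 genes and two-sided tests; the fit was tested on simulated data. The genes and lists, named by rule whatever their values with at most the 4 smallest p-values per list, were chosen with earlier results of these data known. Slides of session 1 held same-numbered pairs, whose deviations correlated at 0.51, 0.15 and 0.57 in order of number. In the pair with 0.15, replicate 2 was closest to replicate 1 of the other group. Over all sessions, same numbers of control and stretch correlated at 0.43 to 0.88, but only replicates 1 and 4 were closest to their own number. Replicates 4 to 7 of these groups shared neither slide nor scan session, so a block by number is not shown to link them. Same numbers of stretch with BIRB796 and stretch correlated at -0.26 to 0.37. The number of arrays limits the precision.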

Additional observations from a re-analysis of the deposited data

How the results depend on the processing

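Of the alternatives tried for single genes, 1375 values kept their direction and side of the threshold, 17 newly passed, 13 no longer passed and 88 changed sign, none of which was called in either fit. For stretch against control over all sessions, the count of 1 called gene became 2 under normexp with quantile normalization and 0 with the slide as a random block, without the array set term, with control replicates 5 and 6 averaged, and with the replicate number as a block; leaving out single samples gave 0 to 3. Matn4 had adjusted p-values in limma of 0.0577, 0.0906, 0.0746 and 0.317 in those fits, and 0.118 with array weights. The gene added under normexp with quantile normalization was Sox9 (0.40, adjusted p 0.0369 in limma). Over the whole array that setting called 2874 of 23479 genes. The count was 392 with the slide as a random block and 296 without the array set term. It was 300 with control replicates 5 and 6 averaged and 0 with the replicate number as a block. Array weights called Runx2 instead of Matn4 for stretch over all sessions (0.78, adjusted p 0.0223 in limma), beside 1276 of 23479 genes. Array weights gave 1 called gene for stretch in session 1, 3 for BIRB796 and 4 for both treatments against control, with the shares of all genes given above. Session 3 alone gave 1 and 2. The cause was not tested, beyond the smaller spread in session 3 given above. Pairing by number left 0 genes called for stretch in session 1, for stretch with BIRB796 against BIRB796 and for stretch with BIRB796 against stretch. No paired analysis was possible for the drug against control because those groups share 1 number within session 3. The averaging of control replicates 5 and 6 and the slide block within session 3 were chosen after seeing the data, as were the comparisons by probe position and within slides.

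Over all genes, counts of calls ranged over the alternatives from 0 to 2874 for stretch over all sessions (2042 as reported; 289 to 4694 leaving out single samples) and from 0 to 1043 for both treatments against stretch (293; 0 to 1719). They ranged from 0 to 7707 for both treatments against control (23; 0 to 145), 0 to 5569 for BIRB796 (0; 0 to 13), 0 to 148 for stretch in session 1 (0; 0 to 1), 0 to 259 for both treatments against BIRB796 (0; 0 to 2) and 0 to 6 for the difference of the stretch changes (0; 0 to 1). Matn3, and Matn1 outside session 1, lay near the background, where signal over background limits what can be seen.

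Leaving out single samples, the difference for stretch in session 1 ranged for Comp from -0.63 to 1.03, Hapln1 from -0.18 to 0.34, Matn3 from -0.20 to 1.03, Chad from -0.23 to 0.80 and Acan from -0.047 to 1.64. For BIRB796, it ranged for Sox9 from -0.053 to 0.14, Matn4 from -0.10 to 0.22 and Chad from -0.076 to 0.54. For both treatments against control, it ranged for Matn3 from -0.038 to 0.67 and Chad from -0.27 to 0.36. For both treatments against BIRB796, it ranged for Chad from -0.57 to 0.17, Matn1 from -0.14 to 0.22 and Comp from -0.42 to 0.10. For the difference of the stretch changes, it ranged for Sox9 from -0.33 to 0.27, Comp from -1.12 to 0.54, Chad from -1.003 to 0.020 and Matn1 from -0.021 to 0.34. For stretch over all sessions, it ranged for Matn1 from -0.19 to 0.13 and Chad from -0.46 to 0.041. For both treatments against stretch, it ranged for Acan from -0.46 to 0.78, Sox9 from -0.32 to 0.20, Hapln1 from -0.77 to 0.15, Comp from -0.61 to 0.017, Matn3 from -0.53 to 0.29 and Runx2 from -0.30 to 0.51. For BIRB796, values on the other side of 0 were -0.031 for Sox9 and -0.0083 for Matn4 with the array set term for all arrays; -0.0022 for Sox9 with control replicates 5 and 6 averaged. For both treatments against control, values on the other side of 0 were -0.14 for Chad with array weights. For both treatments against BIRB796, values on the other side of 0 were -0.024 for Matn1 with normexp and quantile normalization; -0.016 for Matn1 with signals floored. For the difference of the stretch changes, values on the other side of 0 were -0.10 for Sox9 with normexp and quantile normalization; -0.052 for Sox9 with the slide as a random block; -0.24 for Sox9 with array weights. For stretch over all sessions, values on the other side of 0 were 0.11 for Chad with normexp and quantile normalization; 0.28 for Matn1 and 0.13 for Chad with signals floored; 0.035 for Matn1 with stretch replicates 4 and 5 apart; 0.084 for Matn1 and 0.091 for Chad with array weights; 0.24 for Matn1 and 0.10 for Chad without the array set term. For both treatments against stretch, values on the other side of 0 were 0.017 for Matn3 with normexp and quantile normalization; -0.16 for Matn1 with signals floored; -0.10 for Runx2 with the mean of all probes; 0.0019 for Acan and 0.12 for Matn3 with stretch replicates 4 and 5 apart; 0.47 for Acan, 0.0059 for Comp and 0.19 for Matn3 with the slide as a random block; 0.40 for Acan, -0.21 for Chad and -0.31 for Runx2 with array weights; -1.62 for Matn1, 0.021 for Hapln1 and -1.86 for Chad without the array set term; -2.73 for Matn1, -3.23 for Chad and -0.31 for Runx2 with the replicate number as a block.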
